A study of Homo sapiens with 12 samples.

Results

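Antisense RNAs named after a partner gene were followed in HepG2, an established cell line from a human liver tumour, through exposure to the phenoxy herbicide 2,4-D. The RNAs were chosen from the gene count matrix by name and level: a symbol ending in -AS and a number, with 1 such symbol left out by the rule, and a mean of at least 2 CPM, a gene's count as a share of all counts in the library scaled to 1000000, over all 12 libraries. That rule found 159 of 60612 gene rows, out of 1439 rows with such a symbol. The other 1280 lay below the level, and 473 of those named antisense rows had no count in any library. Exposed cells received 0.001 µM 2,4-D for 10, 30 or 360 min, and cells taken at 0 min, which the labels call untreated, are the reference, with 3 libraries in each group. The series has no untreated library at 10, 30 or 360 min. Effects of 2,4-D and of time or handling since 0 min therefore cannot be told apart in any comparison. All 12 libraries come from the same line, described in triplicate with no passage or culture day, and RNA was captured on poly(dT) beads. The partner gene, whose symbol stands before -AS, serves as a reference for its antisense RNA and was tested in the same fit.

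Antisense RNAs are transcribed from the strand opposite to a gene, and many start beside that gene's promoter or run into its exons. They are mostly long noncoding RNAs, often kept in the nucleus, and single examples are known to act on the transcription, splicing or stability of the RNA from the other strand. Many are short-lived because the nuclear exosome and its adaptor proteins degrade them. Whether an antisense RNA and its partner move together depends on the pair, since they can share a promoter region, compete for the same template, or be regulated apart.

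The sources used here do not say whether counting used strand. Where exons of a pair overlap, reads of the gene and of its antisense RNA cannot be told apart unless strand is kept. The same holds for exons of other genes on the opposite strand. Counting any such gene, 132 antisense RNAs had exon bases under an opposite-strand exon. Of the 159 antisense RNAs, 119 had exon bases lying in exons of the partner in the GENCODE 29 annotation (GRCh38), 30 of them for 25% or more of their exon length, and DDIT4-AS1 and NAV2-AS1 lay wholly in partner exons. The DDIT4 and IER3 pairs, whose antisense RNAs changed most among those called at 30 min, show what that means at the level of sequence. The 30 bases shown for each are the same piece of DNA written on both strands, from the annotated transcripts; the capitals mark the same 8 bases in each pair. DDIT4 and its antisense RNA share chr10:72275951-72275980, and IER3 and its antisense RNA share chr6:30743234-30743263 (GRCh38).
DDIT4-AS1, minus strand: TTGAACATcaagtgtattcatgaacagtga
DDIT4, plus strand: tcactgttcatgaatacacttgATGTTCAA
IER3-AS1, plus strand: AACATACTaggcgatctcgacagtcgctcc
IER3, minus strand: ggagcgactgtcgagatcgcctAGTATGTT
A read from any of these stretches matches both genes of the pair.

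Total counts ran from 29766148 to 83539763 per library, and 3 counts, the floor used here, corresponded to 0.0359 to 0.101 CPM, for counting error only. The antisense RNAs took 0.131 to 0.151% of the counts. The share of mitochondrial counts fell into a higher band of 3.55 to 4.39% in 7 libraries, namely all at 10 min, 2 at 30 min, 1 at 360 min and 1 at 0 min, and a lower band of 2.52 to 2.74% in the other 5. A term for this split was tried as an alternative. The hepatocyte markers fixed for the line summed to 28477 to 32970 CPM, whereas the 13 markers of blood, endothelial, stromal and squamous cells summed to 107 to 123 CPM, with 4 of the 13 at 0 throughout. CPM values of single libraries are scaled by TMM, edgeR's scaling for library composition, and libraries are listed in the order of their replicate numbers. In bulk RNA, fewer cells with an RNA and less of it per cell cannot be told apart.

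Levels were low and the pairs were built in several ways. The median antisense RNA had 4.95 CPM, 81 lay between 2 and 5 CPM, 65 between 5 and 20 CPM, and 13 at 20 CPM or more. PCBP1-AS1, beside the gene of an RNA-binding protein of poly(C) tracts, was the highest at 82.1 CPM, followed by FGD5-AS1 at 73.5 CPM, MIF-AS1 at 41.3 CPM, MAGI2-AS3 at 39.6 CPM and ENTPD1-AS1 at 39.1 CPM. TP73-AS1 (37.5 CPM), NUTM2A-AS1 (31.4 CPM), STARD4-AS1 (29.7 CPM), GABPB1-AS1 (27.5 CPM) and SVIL-AS1 (22.1 CPM) completed the 10 highest. NUTM2A-AS1 has a near-identical copy, NUTM2B-AS1, and C4A-AS1 another, C4B-AS1, so their counts are uncertain. Just inside the level stood CACTIN-AS1 and TOB1-AS1 at 2.02 CPM and C4A-AS1 at 2.00 CPM, and just outside it PYCARD-AS1 at 1.99 CPM and ZNF436-AS1 at 1.98 CPM.

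A partner row was found for 158 of the antisense RNAs, under 155 gene names, and 147 had a partner that passed the filter on low counts. HOXA-AS2 names no single gene and has no partner. The pair overlapped at the 5′ ends in 60 cases and at the 3′ ends in 48, and 1 gene lay inside the other in 36. A further 13 pairs faced away from each other without overlap, with starts under 2000 bases apart, and 1, LYRM4-AS1, lay farther off. Partners were the more abundant in 121 of the 158 pairs by CPM. Per kb of exon, the antisense RNA was the higher of the pair in 45 of 158, with medians of 1.66 CPM per kb for antisense RNAs and 5.36 CPM per kb for partners. FGD5-AS1 reached 14.3 CPM per kb while FGD5, a gene of vascular cells, stood at 0.00551 CPM per kb. DDIT4-AS1 stood at 21.9 CPM per kb, against 68.2 CPM per kb for DDIT4.

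The earliest comparison asks whether any antisense RNA had moved after 10 min. None of the 159 passed an adjusted p of 0.05 in edgeR's quasi-likelihood test, in which 0.0169% of the 17779 genes tested were called, 0.0112% higher and 0.00562% lower. Without overlap between the groups' libraries 11 antisense RNAs lay higher and 9 lower, where 7.73% and 7.72% of all genes did. DESeq2 and limma voom also called 0. An unadjusted edgeR p under 0.05 was found for 16 of the 159 antisense RNAs and for 1941 of the 17779 genes tested. Among those with the smallest p on the lower side were PSMA3-AS1 (log2 fold change -0.24 ± 0.07 SE, adjusted p = 0.247) and IER3-AS1 (-0.67 ± 0.20, adjusted p = 0.252). On the higher side the 3 with the smallest p were SGMS1-AS1 (0.38 ± 0.13, adjusted p = 0.325), SBF2-AS1 (0.19 ± 0.08, adjusted p = 0.391) and PAXBP1-AS1 (0.54 ± 0.22, adjusted p = 0.391). All 3 libraries at 10 min lay beyond those at 0 min for each of these 5. Among partner genes only IER3, an immediate early gene of stress and growth signals, was called, with 100.6, 99.4 and 99.8 CPM at 10 min, against 143, 134 and 155 CPM at 0 min (log2 fold change -0.53 ± 0.06, adjusted p = 0.0133). CERS6-AS1, named after its values were seen, was the 1 antisense RNA that any alternative called at 10 min, without 10 min replicate 2 (adjusted p = 0.0216). Its libraries read 0.886, 6.18 and 0.0964 CPM at 10 min, against 5.49, 4.04 and 4.5 CPM at 0 min.

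At 30 min 5 antisense RNAs differed from 0 min, 3 higher and 2 lower, 3.14% of the 159. The test called 0.765% of all genes at 30 min, 0.18% higher and 0.585% lower. Genes in the same CPM range were called in 1.11% of cases and the 534 other long noncoding RNAs at 2 CPM or more in 1.5%. The 2 that fell, DDIT4-AS1 and IER3-AS1, have stress-responsive partner genes that fell as well. The 3 that rose, NFYC-AS1, SGMS1-AS1 and EPB41L4A-AS1, rose without a partner passing the test. Without overlap between the groups' libraries, 17 antisense RNAs lay higher and 5 lower, where 7% and 7.5% of all genes did. The median log2 fold change was 0.03 over the 159 and 0.00 over all genes.

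DDIT4 encodes a stress-induced inhibitor of the growth kinase complex mTORC1, and its antisense RNA is annotated at chr10:72274915-72275980, inside the gene, with 100% of its 847 exon bases in DDIT4 exons. DDIT4-AS1 stood at 8.24, 7.09 and 7.47 CPM at 30 min, against 20.1, 16.5 and 18.9 CPM at 0 min. No library at 30 min came near one at 0 min (log2 fold change -1.28 ± 0.08, edgeR adjusted p = 4.12e-06). DDIT4 read 59.8, 57.4 and 53.5 CPM at 30 min, against 139, 143 and 153 CPM at 0 min, a change of nearly the same size (-1.35 ± 0.06, adjusted p = 1.45e-07).

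IER3-AS1 lies over the 3′ end of IER3, with 68.1% of its exon bases in IER3 exons. It had 1.74, 2.25 and 2.27 CPM at 30 min, against 6.70, 4.15 and 4.41 CPM at 0 min. Replicate 1 at 0 min was the highest, and the groups did not overlap (-1.29 ± 0.20, edgeR adjusted p = 0.00751). IER3 stood at 54.0, 58.1 and 50.3 CPM at 30 min, against 143, 134 and 155 CPM at 0 min (-1.41 ± 0.06, adjusted p = 1.45e-07). IER3-AS1 averaged 3.17 ± 0.68 CPM at 10 min (SD, n = 3), between its 30 and 0 min levels. In both pairs most antisense exon bases lie in partner exons, so the antisense counts cannot be told apart from the partner's unless strand was kept.

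NFYC-AS1, at the 5′ end of the gene of a subunit of the CCAAT-binding factor NF-Y, had 3.11, 2.73 and 2.49 CPM at 30 min, against 1.82, 1.67 and 1.52 CPM at 0 min (0.74 ± 0.13, edgeR adjusted p = 0.0204). NFYC averaged 44.5 ± 0.60 CPM at 30 min and 44.9 ± 1.0 CPM at 0 min (SD, n = 3 each). SGMS1-AS1 starts 212 bases from SGMS1, the gene of a sphingomyelin synthase. It shares 1.67% of its exon bases with SGMS1, and opposite-strand exons of any gene cover 1706 of its 12420. It read 5.37, 4.77 and 4.59 CPM at 30 min, against 3.46, 3.04 and 3.02 CPM at 0 min (0.64 ± 0.13, adjusted p = 0.0377), while SGMS1 changed by -0.09 ± 0.06 (adjusted p = 0.742). Both antisense RNAs were higher in every 30 min library than in any library at 0 min.

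EPB41L4A-AS1 is a spliced RNA that also hosts a small nucleolar RNA, and 49.6% of its exon bases lie in exons of EPB41L4A, a gene of the band 4.1 family. The antisense RNA had 27.8, 26.2 and 25.6 CPM at 30 min, against 21.9, 18.6 and 16.5 CPM at 0 min (0.49 ± 0.09, edgeR adjusted p = 0.0277). EPB41L4A itself, at 3.68, 6.87 and 6.38 CPM at 30 min and 4.21, 1.51 and 1.94 CPM at 0 min, did not pass (1.17 ± 0.38, adjusted p = 0.297). ZNF503-AS2, the next on the lower side, did not pass either (-0.35 ± 0.10, adjusted p = 0.226).

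The 3 rises lost their calls more often than the 2 falls. Of the 16 alternatives, EPB41L4A-AS1 lost its call in 8, SGMS1-AS1 in 10 and NFYC-AS1 in 7. EPB41L4A-AS1 and SGMS1-AS1 missed the threshold when any 30 min library, or 0 min replicate 2 or 3, was dropped, with adjusted p up to 0.133 and 0.178. NFYC-AS1 missed it when 0 min replicate 2 or 3 was dropped, and also when 30 min replicate 1 or 2 was, with adjusted p up to 0.119. DDIT4-AS1 and IER3-AS1 passed in all 16 alternatives. With 1 library dropped, their edgeR adjusted p went up to 7.96e-05 and 0.0492. With a term for the mitochondrial split SGMS1-AS1 had an adjusted p of 0.0568.

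**Figure D1:**
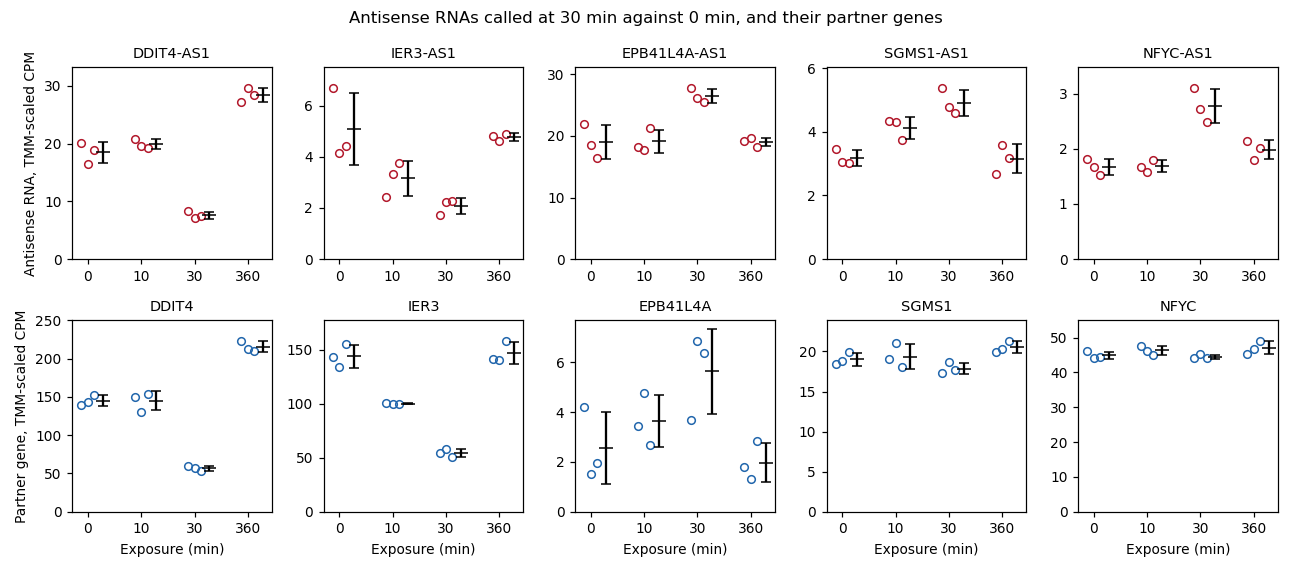
CPM of the 5 antisense RNAs called at 30 min (top, red) and of their partner genes (bottom, blue) by exposure time in min; circles are libraries, and the bar beside them is the mean ± SD of 3. DDIT4-AS1 and IER3-AS1 dip at 30 min together with DDIT4 and IER3, while NFYC-AS1 and SGMS1-AS1 peak at 30 min over partners that stay level.

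After 360 min 19 antisense RNAs differed from 0 min, 12 higher and 7 lower, or 11.9% of the 159. Over all genes 18.1% were called, 8.89% higher and 9.19% lower, and among genes of the same CPM range 21.8%; the other long noncoding RNAs at 2 CPM or more stood at 13.5%. Without overlap between the libraries, 25 antisense RNAs were higher and 22 lower, where 18.3% and 17.3% of all genes were. Their median log2 fold change was 0.02, and that of all genes 0.00. Only DDIT4-AS1 was also called at 30 min, on the other side.

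Among the 12 called higher, DDIT4-AS1 and HNF4A-AS1 had the largest log2 fold changes. DDIT4-AS1 had 27.1, 29.6 and 28.5 CPM at 360 min, against 20.1, 16.5 and 18.9 CPM at 0 min (0.62 ± 0.08, edgeR adjusted p = 0.000140). DDIT4 had 223, 213 and 210 CPM at 360 min, against 139, 143 and 153 CPM at 0 min (0.57 ± 0.06, adjusted p = 4.38e-05). HNF4A-AS1, a minus-strand RNA inside the locus of HNF4A, the nuclear receptor that drives much of the hepatocyte programme, had 6.55, 6.22 and 6.19 CPM at 360 min, against 4.04, 4.33 and 4.43 CPM at 0 min (0.57 ± 0.09, adjusted p = 0.00112). None of its exon bases lies under an exon of the opposite strand. HNF4A rose by less, averaging 335 ± 5.9 CPM at 360 min and 299.5 ± 5.5 CPM at 0 min (SD, n = 3 each). Its log2 fold change was 0.16 ± 0.03 (edgeR adjusted p = 0.00493). At 30 min HNF4A had been called lower than at 0 min, averaging 266 ± 7.4 CPM (SD, n = 3). That log2 fold change was -0.17 ± 0.03 (edgeR adjusted p = 0.0381), while HNF4A-AS1 was not called at 30 min. Both genes were called higher at 360 min than at 30 min.

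The RefSeq promoter window of HNF4A-AS1 is shown because the 2 transcripts of this locus rose by different amounts. It covers 250 bases before the start to 50 after it, at chr20:44395613-44395912 on the minus strand (GRCh38.p14).
HNF4A-AS1 promoter: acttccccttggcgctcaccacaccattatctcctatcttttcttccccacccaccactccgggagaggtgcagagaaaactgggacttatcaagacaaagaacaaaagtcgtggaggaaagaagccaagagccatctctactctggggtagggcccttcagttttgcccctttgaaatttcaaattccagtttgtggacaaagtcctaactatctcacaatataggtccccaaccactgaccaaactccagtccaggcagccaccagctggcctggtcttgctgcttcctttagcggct
It held no match on either strand to CAAAGTCCA, a motif known for HNF4A that 0.385% of 35097 promoter windows hold, nor to the GC box GGGCGG, the CCAAT box, the TATA box with the letters TATAAA, the E-box with the letters CACGTG, the AP-1 motif with the letters TGANTCA or the CREB motif with the letters TGACGTCA. TATAAA was found in 11.5% of promoter windows, CACGTG in 7.25%, TGANTCA in 7.71% and TGACGTCA in 1.85%. No match says only that these exact letters are not in this window. The window does hold caaagtcct, which differs from CAAAGTCCA in the last letter. Near matches were not counted in other windows.

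The other 10 that rose changed by 0.19 to 0.49 on the log2 scale. CAVIN2-AS1 (0.43 ± 0.13, adjusted p = 0.0331) starts beside CAVIN2, the gene of a coat protein of caveolae, and averaged 3.47 ± 0.50 CPM at 360 min and 2.59 ± 0.16 CPM at 0 min. CAVIN2 averaged 52.4 ± 0.90 CPM at 360 min and 34.3 ± 2.9 CPM at 0 min (0.61 ± 0.05, adjusted p = 1.38e-05; SD, n = 3 each). RPARP-AS1 (0.29 ± 0.07) rose with the gene C10orf95 that it encloses (0.60 ± 0.16), and MRPL20-AS1 (0.19 ± 0.05) rose with MRPL20 (0.14 ± 0.04), a gene of the mitochondrial ribosome. NPSR1-AS1 was 19.6, 19.6 and 19.3 CPM at 360 min, against 15.3, 16.6 and 15.7 CPM at 0 min (0.30 ± 0.05, adjusted p = 0.00157). Its partner, a neuropeptide receptor gene, stayed at 0.28 CPM or less in every library and was not tested.

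No call of the partner accompanied the rises of MCM3AP-AS1, TMEM161B-AS1, PAXIP1-AS1, FAM198B-AS1 and THUMPD3-AS1, whose partners had log2 fold changes of -0.03 to 0.15. THUMPD3 encodes a tRNA methyltransferase and PAXIP1 a protein of the DNA damage response. THUMPD3-AS1 averaged 14.3 ± 1.1 CPM at 360 min and 11.1 ± 0.55 CPM at 0 min, while THUMPD3 averaged 37.7 ± 3.1 CPM at 360 min and 37.8 ± 2.7 CPM at 0 min (SD, n = 3 each). FAM198B-AS1 averaged 13.9 ± 0.41 CPM at 360 min and 10.5 ± 0.66 CPM at 0 min (SD, n = 3 each; 0.39 ± 0.07, adjusted p = 0.00182); its partner row bears the newer symbol GASK1B. BCAR3-AS1 rose to 9.32, 9.48 and 10.5 CPM at 360 min, against 8.12, 7.94 and 7.62 CPM at 0 min (0.31 ± 0.07, adjusted p = 0.0103), as BCAR3, the gene of a signalling adaptor, fell to 15.0, 14.9 and 15.0 CPM at 360 min, against 16.9, 19.3 and 17.5 CPM at 0 min (-0.26 ± 0.06, adjusted p = 0.00753).

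ZMIZ1-AS1 led the lower side. It read 1.44, 1.33 and 1.75 CPM at 360 min, against 4.5, 3.06 and 3.02 CPM at 0 min (-1.20 ± 0.16, edgeR adjusted p = 0.000291). ZMIZ1, the gene of a transcriptional coactivator, fell to 76.4, 76.3 and 82.9 CPM at 360 min, against 114, 114 and 110 CPM at 0 min (-0.52 ± 0.04, adjusted p = 5.84e-06). The 2 genes face away from each other with starts 1140 bases apart in GENCODE 29 and share no exon base, and neither was called at 10 or 30 min. The RefSeq promoter window of ZMIZ1-AS1 is chr10:79067399-79067698 on the minus strand (GRCh38.p14). It lies inside the GENCODE 29 span of the antisense RNA, chr10:78943328-79067895, at the end nearer ZMIZ1. The RefSeq start thus differs from the GENCODE 29 start used for the 1140 bases. The window is shown for that pair, with capitals marking matches to CCAAT and GGGCGG on either strand.
ZMIZ1-AS1 promoter: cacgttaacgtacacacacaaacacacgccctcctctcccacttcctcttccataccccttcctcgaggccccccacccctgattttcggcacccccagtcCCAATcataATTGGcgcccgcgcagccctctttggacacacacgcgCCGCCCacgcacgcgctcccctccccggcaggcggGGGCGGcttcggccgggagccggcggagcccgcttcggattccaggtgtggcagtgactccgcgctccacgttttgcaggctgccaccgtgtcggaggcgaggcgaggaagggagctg
CCAAT, which 34.6% of promoter windows hold on either strand, matched at -149 and, on the other strand, at -140 from the start. GGGCGG, held by 44.9% of windows, matched at -68 and, on the other strand, at -103. Neither match is a measured site.

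The other 6 that fell were DLGAP1-AS2, DLGAP1-AS1, DDN-AS1, MRPL23-AS1, CCDC18-AS1 and GATA2-AS1. DLGAP1-AS2 averaged 2.13 ± 0.18 CPM at 360 min and 3.56 ± 0.19 CPM at 0 min (-0.73 ± 0.16, adjusted p = 0.00775), and DLGAP1-AS1 averaged 1.57 ± 0.23 CPM at 360 min and 2.44 ± 0.29 CPM at 0 min (-0.63 ± 0.19, adjusted p = 0.0399; SD, n = 3 each). Both lie inside DLGAP1, a gene of the postsynaptic density that was too low to test. GATA2-AS1 (-0.33 ± 0.08) fell with GATA2 (-0.62 ± 0.07), the gene of a zinc finger transcription factor; GATA2 had 8.38, 8.18 and 9.10 CPM at 360 min, against 13.1, 13.0 and 13.5 CPM at 0 min.

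Of the 2238 exon bases of DDN-AS1, 1093 lie under opposite-strand exons of any gene, and 300 lie in DDN exons. DDN-AS1 fell beside a partner that did not pass. It had 8.06, 8.26 and 10.3 CPM at 360 min, against 12.9, 11.9 and 13.6 CPM at 0 min (-0.53 ± 0.09, edgeR adjusted p = 0.00193). DDN, the gene of dendrin, averaged 11.9 ± 0.40 CPM at 360 min and 12.0 ± 0.60 CPM at 0 min (adjusted p = 0.981; SD, n = 3 each). CCDC18-AS1 moved against its partner, with 3.44, 3.41 and 3.48 CPM at 360 min, against 5.09, 4.22 and 4.22 CPM at 0 min (-0.39 ± 0.11, adjusted p = 0.0323). CCDC18, a coiled-coil gene that shares 1.5% of the antisense exon bases, averaged 26.3 ± 1.2 CPM at 360 min and 20.9 ± 0.92 CPM at 0 min (0.33 ± 0.06, adjusted p = 0.00230; SD, n = 3 each).

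DDIT4-AS1, HNF4A-AS1, FAM198B-AS1, NPSR1-AS1, ZMIZ1-AS1 and DDN-AS1 passed in all 16 alternatives. PAXIP1-AS1 lost its call in 9 of them, and DLGAP1-AS1, MRPL20-AS1 and TMEM161B-AS1 in 7 each. CAVIN2-AS1 and CCDC18-AS1 lost theirs in 6 each, RPARP-AS1 in 5 and MRPL23-AS1 in 4. The count was 2 each for MCM3AP-AS1, BCAR3-AS1 and GATA2-AS1, and 1 each for THUMPD3-AS1 and DLGAP1-AS2. With 1 library left out, the edgeR adjusted p of CCDC18-AS1 went up to 0.108. Leaving out 1 library lowered the count from 19 to between 12 and 16, with 12 without 360 min replicate 2. With 0 min replicate 1 as the lone untreated library, assumed to vary like the other groups, 10 were called.

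**Figure D2:**
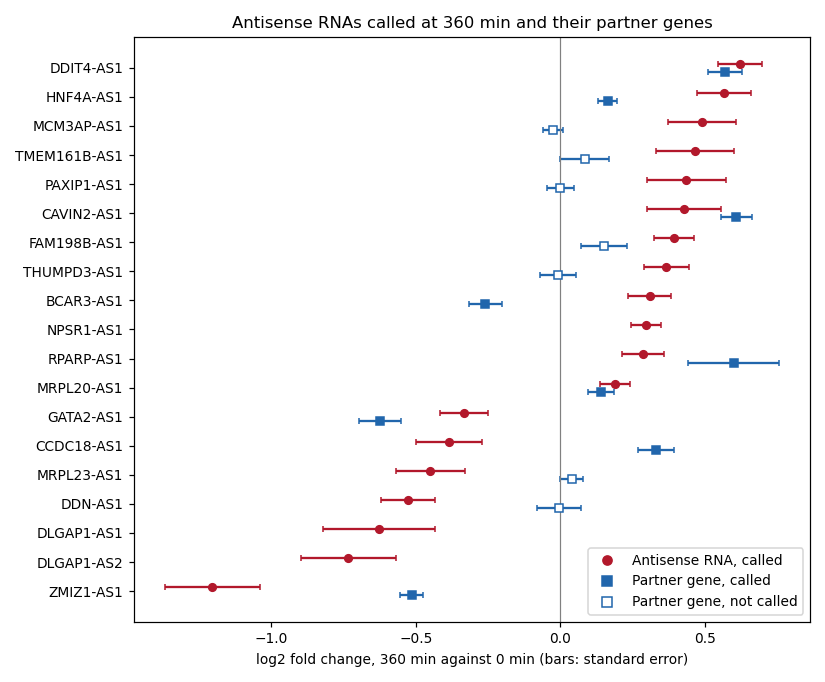
Log2 fold change at 360 min against 0 min of the 19 called antisense RNAs (red circles) and of their tested partners (blue squares, filled where called), with standard errors as bars. ZMIZ1-AS1 stands farthest from 0 at -1.20, and BCAR3-AS1 and CCDC18-AS1 lie across 0 from their called partners.

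**Figure D3:**
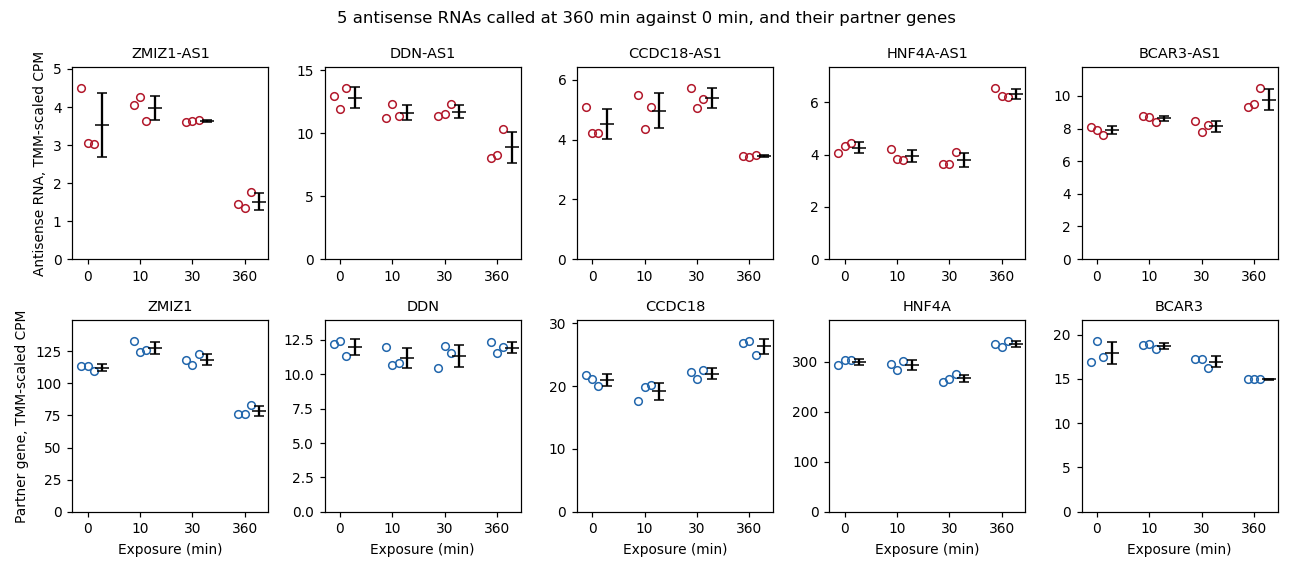
CPM of 5 antisense RNAs called at 360 min (top, red) and of their partner genes (bottom, blue) by exposure time in min; circles are libraries, and the bar beside them is the mean ± SD of 3. The 360 min libraries of each antisense RNA lie apart from its 0 min libraries, and DDN stays near 12 CPM while DDN-AS1 falls.

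From 30 to 360 min the same model called 29 antisense RNAs, 12 higher and 17 lower at 360 min, or 18.2%, where 22.7% of all genes were called, 11.4% higher and 11.3% lower. Without overlap, 27 lay higher and 33 lower, where 19.8% and 20% of all genes did, 39.8% in all. This comparison shares libraries with those against 0 min. Of the 29, 13 were also called against 0 min. DDIT4-AS1 (1.90 ± 0.08) and IER3-AS1 (1.21 ± 0.20) were higher at 360 min than at 30 min, and IER3-AS1 at 360 min, with 4.81, 4.62 and 4.91 CPM, did not differ from 0 min beyond its spread (-0.08 ± 0.19). SGMS1-AS1 (-0.65 ± 0.13), NFYC-AS1 (-0.48 ± 0.13) and EPB41L4A-AS1 (-0.48 ± 0.09) were lower at 360 min than at 30 min. Of these 5, which were called at 30 min against 0 min, 4 were not called at 360 min against 0 min.

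Other antisense RNAs were called between 360 and 30 min and not against 0 min, and those described, apart from TP73-AS1 and MAGI2-AS3, were chosen after their values were seen. TRAF3IP2-AS1 averaged 3.56 ± 0.15 CPM at 360 min and 2.51 ± 0.29 CPM at 30 min (0.50 ± 0.13, edgeR adjusted p = 0.0155), while TRAF3IP2, an adaptor gene of interleukin-17 signalling, averaged 8.43 ± 1.4 CPM at 360 min and 11.9 ± 0.38 CPM at 30 min (-0.49 ± 0.10, adjusted p = 0.00335; SD, n = 3 each). PPM1F-AS1 (0.50 ± 0.11) and PPM1F (-0.25 ± 0.04), a phosphatase gene, also moved apart. So did TP73-AS1 (0.19 ± 0.05, adjusted p = 0.0109) and TP73 (-0.53 ± 0.07, adjusted p = 0.000119), a relative of the tumour suppressor p53. TP73-AS1 read 41.3, 40.3 and 40.6 CPM at 360 min, against 37.7, 34.8 and 34.4 CPM at 30 min. ELFN1-AS1 (-0.62 ± 0.16) and ELFN1 (-0.63 ± 0.17) moved together, as did MAGI2-AS3 (-0.19 ± 0.06) and MAGI2 (-0.32 ± 0.10).

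Set side by side, the pairs showed no single relation. At 30 min 6 of the 145 tested partners were called, 1 higher and 5 lower, or 4.14%, where 0.765% of all genes were, and 2 pairs had both genes called, in the same direction. At 360 min 39 partners were called against 0 min, 17 higher and 22 lower, or 26.9% of the 145, where 18.1% of all genes were and 21.8% of genes in the CPM range of the antisense RNAs. Of the 16 called antisense RNAs with a tested partner, 9 had a called partner, 7 in the same and 2 in the opposite direction. Between 360 and 30 min 34.5% of partners were called, where 22.7% of all genes were, and 15 pairs had both genes called, 9 in the same and 6 in the opposite direction. Across the 147 pairs, which share libraries and depth, Pearson's r between the 2 log2 fold changes was 0.36 at 30 min and 0.03 once DDIT4-AS1 and IER3-AS1 were left out. At 360 min it was 0.18, and 0.16 without those 2.

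By arrangement, the 30 pairs with 25% or more of the antisense exon bases in partner exons had an r of 0.67 at 30 min, and of 0.12 without DDIT4-AS1 and IER3-AS1. At 360 min their r was 0.15, and -0.10 without those 2. The 13 pairs facing away from each other reached 0.82 at 360 min, with ZMIZ1-AS1 at the end of the range, and the 43 pairs overlapping at the 3′ ends had -0.39. At 30 min both had the other sign, -0.38 for the pairs facing away and 0.48 for those overlapping at the 3′ ends. The 33 pairs with no shared exon base had an r of 0.44 at 360 min, with 4 called antisense RNAs and 8 called partners. These are descriptions across genes, which are not replicates.

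**Figure D4:**
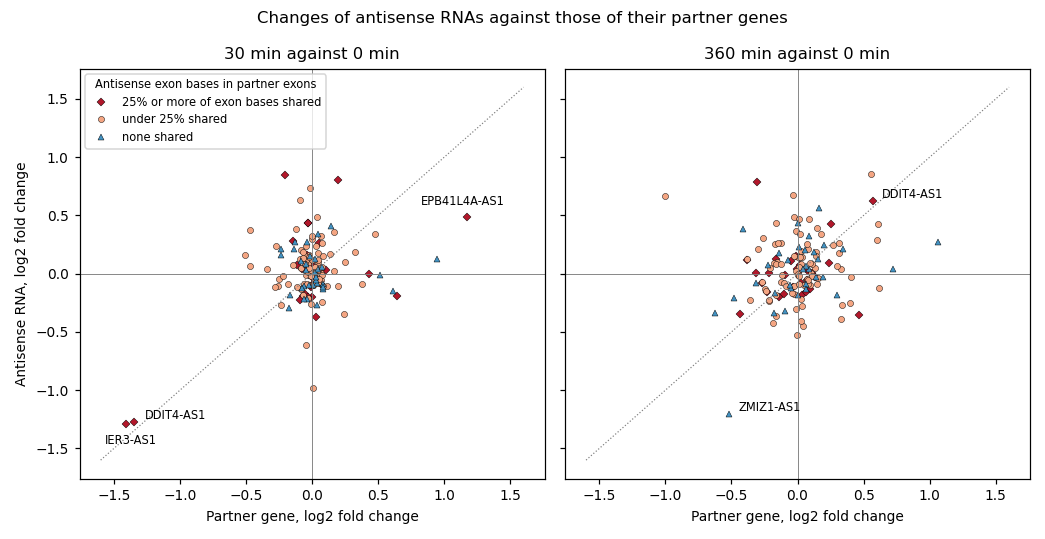
Log2 fold change of 147 antisense RNAs (vertical axis) against that of their partner genes (horizontal axis) at 30 and at 360 min against 0 min, with the dotted line marking equal change; colours give the share of antisense exon bases in partner exons. At 30 min DDIT4-AS1 and IER3-AS1 stand alone near -1.3 on both axes, and the other pairs scatter around 0.

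The level of an antisense RNA relative to its partner, as log2 of the ratio of CPM + 0.5, was followed for the called pairs. For DDIT4-AS1 it averaged -2.94 ± 0.16, -2.83 ± 0.13, -2.83 ± 0.09 and -2.90 ± 0.10 at 0, 10, 30 and 360 min (SD, n = 3 each). For IER3-AS1 it ran -4.72 ± 0.35, -4.79 ± 0.29, -4.41 ± 0.21 and -4.80 ± 0.07, with 30 and 0 min overlapping. The 30 and 0 min ratios of both pairs overlapped while their levels did not.

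The ratio of SGMS1-AS1 to SGMS1 was -1.77 ± 0.15 at 30 min and -2.41 ± 0.14 at 0 min, and that of NFYC-AS1 to NFYC was -3.78 ± 0.14 at 30 min and -4.39 ± 0.08 at 0 min, with every 30 min library above every 0 min library. At 360 min the ratio of BCAR3-AS1 to BCAR3 was -0.59 ± 0.09, against -1.13 ± 0.11 at 0 min, and HNF4A-AS1 to HNF4A was -5.62 ± 0.05, against -5.98 ± 0.04. Lower ratios at 360 min were found for CCDC18-AS1 (-2.77 ± 0.08, against -2.10 ± 0.10 at 0 min), DDN-AS1 (-0.42 ± 0.19, against 0.09 ± 0.16) and ZMIZ1-AS1 (-5.30 ± 0.09, against -4.83 ± 0.27), with no overlap. A set of 3 libraries against 3 cannot give an exact permutation p below 0.10, so these ratios were not tested.

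In some pairs, chosen after their values were seen, the antisense RNA and its partner varied in opposite directions between replicates of a group. ENTPD1-AS1 ran from 15.3 to 61.9 CPM over the 12 libraries, and ENTPD1, the gene of an ectonucleotidase, from 9.30 to 54.8 CPM, but their sum stayed between 64.2 and 71.2 CPM. At 10 min ENTPD1-AS1 had 61.9, 15.3 and 56.4 CPM and ENTPD1 had 9.30, 54.8 and 14.5 CPM. GEMIN7-AS1 stood either at 5.72 to 7.43 CPM or at 0.228 to 1.1 CPM, in both states in every group, while its sum with GEMIN7, a gene of the SMN complex, stayed between 18.0 and 22.5 CPM. The within-group SD of the sum was below that of the antisense RNA alone in 12 of 147 pairs, and below 0.5 of it in ENTPD1-AS1, GEMIN7-AS1 and PCBP1-AS1. Among called antisense RNAs this lower SD of the sum held for RPARP-AS1 at 360 against 0 min. It also held for SH3BP5-AS1 and MAGI2-AS3 at 360 against 30 min. Where the partner varied far more, this measure could hardly show an exchange of counts. Within groups DDIT4 had an SD of 8.17 CPM and DDIT4-AS1 one of 1.22 CPM. Which gene such reads came from cannot be told from the counts, and the part of this in the called changes was not tested.

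The within-group coefficient of variation of the 159 ran from 2.66% for NPSR1-AS1 to 86.0% for GEMIN7-AS1, with a median of 10.4%. In 12 it was above 25%, and none of these was called in a comparison with 0 min; 1, SH3BP5-AS1, was called between 360 and 30 min. PRKG1-AS1 had the highest log2 fold change of the 159 at 360 min, 1.54 ± 0.71, and did not pass (adjusted p = 0.165). PCBP1-AS1 had 71.0, 134 and 99.0 CPM at 360 min, against 51.0, 71.8 and 66.4 CPM at 0 min, with overlapping groups (0.67 ± 0.24, adjusted p = 0.0695). STARD4-AS1 read 7.19 CPM in 30 min replicate 3 and did not pass at any time, whereas STARD4, which carries cholesterol between membranes, rose at 360 min (0.62 ± 0.05, adjusted p = 4.96e-06).

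**Figure D5:**
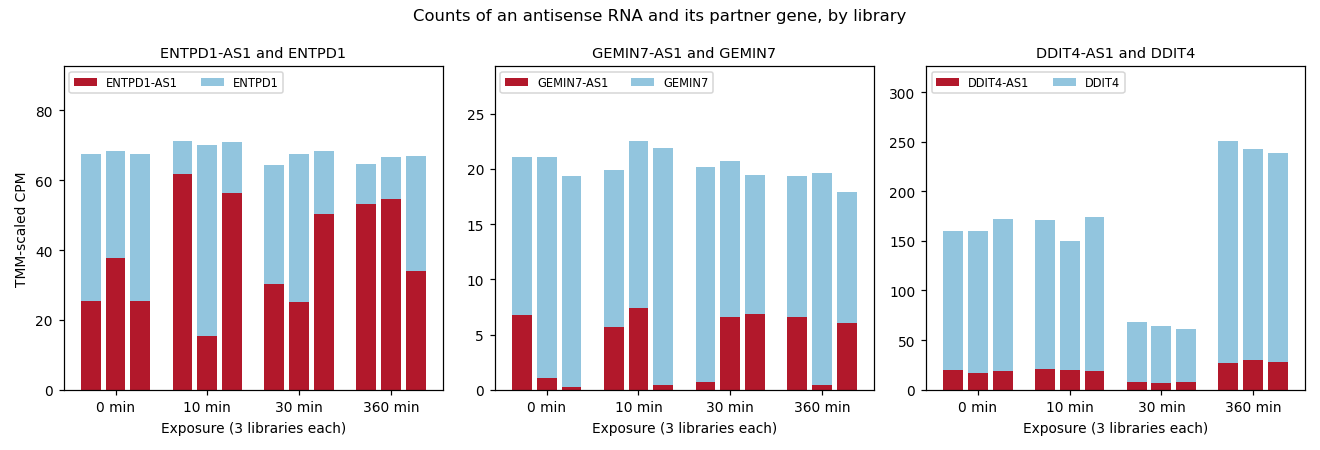
CPM of the antisense RNA (red) with that of its partner (light blue) stacked on it, in each of the 12 libraries, by exposure time, for the ENTPD1, GEMIN7 and DDIT4 pairs. Bars of the ENTPD1 and GEMIN7 pairs stay level while the red part jumps between libraries of a group, whereas both parts of the DDIT4 pair shrink at 30 min and grow at 360 min.

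Genes that handle noncoding RNA were read from 4 lists beside the antisense RNAs. None of the 27 genes of the nuclear exosome and its adaptors, the 24 of early termination or the 19 of double-stranded and small RNA processing was called by edgeR at 10 or 30 min. At an unadjusted p under 0.05 they numbered 4, 4 and 5 at 10 min and 6, 4 and 1 at 30 min. Of all 17779 genes tested, 1941 had such a p at 10 min and 1652 at 30 min. DESeq2 called 0, 0 and 1 genes of these lists at 10 min and 2, 0 and 0 at 30 min. Its share over all genes is not given here. The last list holds abundant long noncoding RNAs, among them small nucleolar RNA hosts of the SNHG family. Where in the cell they lie was not measured. Of its 16 tested, 0 were called at 10 min, with 5 at an unadjusted p under 0.05 and 1 in DESeq2. At 30 min 2 of them were higher, SNHG1 and SNHG3, named after their values were seen, and DESeq2 called 3, where edgeR called 0.18% of all genes higher. At 360 min 8.89% of all genes were higher and 9.19% lower, 18.1% in all, and the counts of the lists are to be read against those shares. Of the 27 exosome and adaptor genes 5 were higher and 0 lower, about the share of all genes called, with a list median of 0.08 against 0.00 over all genes. ZFC3H1 (0.39 ± 0.07) and ZCCHC8 (0.26 ± 0.05), parts of adaptors that bring nuclear RNA to the exosome, SRRT (0.32 ± 0.04), which links the cap to those adaptors, and TENT4B (0.23 ± 0.04), which adds the tails that mark RNA for decay, were the 4 with the smallest p. SRRT had 230, 223 and 247 CPM at 360 min, against 183, 191 and 186 CPM at 0 min (edgeR adjusted p = 0.000102).

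Early termination counted 1 of 24 genes higher, WDR82 (0.14 ± 0.03), and 2 lower, a smaller share than the 18.1% of all genes. The 2 were the Integrator subunits INTS8 (-0.22 ± 0.05) and INTS6 (-0.16 ± 0.05). Double-stranded and small RNA processing counted 4 of 19 genes higher and 2 lower, where 8.89% and 9.19% of all genes were. AGO2, the slicing Argonaute, fell to 67.9, 64.9 and 68.5 CPM at 360 min, against 86.3, 86.6 and 80.6 CPM at 0 min (-0.33 ± 0.04), and AGO4 fell too (-0.56 ± 0.10). EIF2AK2, the kinase that senses double-stranded RNA, rose (0.27 ± 0.04), as did the helicase DHX9 (0.24 ± 0.04). Of the 16 abundant long noncoding RNAs, 5 were higher and 1 lower at 360 min. Of all genes 18.1% were called, and of the other long noncoding RNAs at 2 CPM or more 13.5%. SNHG12 (0.43 ± 0.06) and KCNQ1OT1 (0.43 ± 0.09) were among those that rose.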

How the data were processed

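Per the labels' protocols, polyadenylated RNA of trypsinised HepG2 cells was reverse transcribed. The authors deposited whole-number read counts per gene for 12 libraries, 3 per exposure time. The submitters' processing notes name HISAT2, DESeq2 and GRCh38, while their versions, the counting program, its annotation and its strand setting were not stated in the sources used here. The deposited counts went unchanged into edgeR 4.0.16 (R 4.3.3), with filterByExpr by group (17779 genes), TMM and 1 quasi-likelihood model over all 12 libraries with 1 coefficient per group (8 residual degrees of freedom). Calls needed an adjusted p (Benjamini-Hochberg, over all genes tested) under 0.05. SE is the log2 fold change divided by the root of F. The biological coefficient of variation was 9.72%.

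Pairs were placed with GENCODE 29, which holds 58394 of the 60612 gene identifiers. Promoter windows are from RefSeq (GRCh38.p14), which lists 115 of the 159 RNAs. The series text calls the replicates biological without naming cultures or days, so p-values measure the spread between these samples. Deviations of same-numbered libraries from their group means correlated at -0.054 to 0.099 over 18 pairs, with a median of 0.027. Between libraries of different number they correlated at -0.115 to 0.092 over 36 pairs, with a median of -0.019. These overlapping ranges cannot decide whether a number marks a shared culture or day. The main model did not use the numbers.

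Named antisense RNAs are those called against 0 min, up to 12 in each direction by size, or the 3 with the smallest p where fewer than 3 were called, and the 10 highest by mean CPM. Items that these rules would name but that are missing from the text are not reported here. From the lists, the 4 genes with the smallest p at 360 min could be named. The members, lists and rules were chosen with earlier results of these data known. On simulated counts with known changes, 3 runs on 17564 to 17569 genes recovered 165 of 201 genes changed 1.5-fold at 30 min against 0 min, with 3.09% false calls. At 10 min 157 of 201 were recovered with 5.44% false calls, and at 360 min 163 of 201 with 3.70%. Alternatives used RLE or total-count scaling, other filters, DESeq2 1.42.0, limma 3.58.1 voom, a replicate block, a mitochondrial term, compared groups alone, other thresholds and left-out libraries.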

Additional observations from a re-analysis of the deposited data

How the results depend on the processing

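No log2 fold change of a named antisense RNA against 0 min changed sign under any alternative. Nor did a ratio of a called pair under the other added constant tried. Fold changes of partners, those between 360 and 30 min and Pearson's r were not put through these alternatives. Counts of calls under alternatives, here and above, come without the share of all genes called under the same setting. They cannot show a departure from that share. Leaving out 1 library at a time gave 0 to 1 called antisense RNAs at 10 min (0 in the main test), 2 to 5 at 30 min (5), 12 to 16 at 360 min against 0 min (19) and 24 to 26 at 360 against 30 min (29); for partners it gave 0 to 1 (1), 2 to 8 (6), 29 to 35 (39) and 39 to 52 (50). At 30 min the count of antisense RNAs was 3 with no filter on low counts and 3 with the replicate block, 2 with the compared groups alone and 2 with 0 min replicate 1 as the lone untreated library, assumed to vary like the other groups. At 360 min against 0 min it was 10 with that lone library and 18 with the replicate block. An adjusted p under 0.01 left 2 antisense RNAs at 30 min, 8 at 360 min against 0 min and 17 against 30 min, and 0, 2, 24 and 32 partners in the 4 comparisons. With a mean of at least 5 CPM the counts were 2, 10 and 15, and among antisense RNAs with no exon overlap 0, 7 and 11, both of which test fewer members. Partners numbered 3 at 10 min and 11 at 30 min in DESeq2, and 0 and 3 with the lone 0 min library. Whether replicate numbers pair the libraries is not known. The block took the calls of SGMS1-AS1 (edgeR adjusted p = 0.0810) and EPB41L4A-AS1 (0.0519) at 30 min and of TMEM161B-AS1 (0.0512) at 360 min. The genes changed in the simulation were drawn from the CPM range of the antisense RNAs, from 2 CPM up. Of 201 simulated 1.3-fold changes, 113 were recovered at 360 min against 0 min, so changes of that size can be missed. The recovery at 2 to 5 CPM alone, the level of 81 of the antisense RNAs, was not measured.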
